A study of Komagataella phaffii CBS 7435 with 16 samples.

Results

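The set described here holds 52 nuclear features of the yeast Komagataella phaffii whose transcript level stayed close to that of oxygenated cultures shortly after oxygen was lowered and was higher in the 2 later samples. The members were chosen by their measured values in these same libraries, out of 5564 features, of which 5041 met every condition other than the thresholds on the differences. Levels are given as CPM, the estimated count scaled to 1000000 summed counts of nuclear t features. The early difference is the log2 ratio of mean CPM, with 1 CPM added, at 0.4 volume changes of 0% oxygen over 30% oxygen. The late difference is the same ratio for the mean of the 8 libraries at 4 and 5 volume changes of 0% oxygen over 30% oxygen. A member has an early difference between -0.4 and 0.4, a late difference of at least 0.8, a group mean of at least 10 CPM and a place outside the first and last 20 t rows of its chromosome. The rule also names 7 identifiers to leave out, and 0 of them met the thresholds.

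Komagataella phaffii is a methylotrophic yeast that is widely used to produce recombinant proteins. It depends largely on respiration when glucose is scarce, and it also needs molecular oxygen to make ergosterol, unsaturated fatty acids and heme. In a chemostat, fresh medium enters and culture leaves at a fixed rate, and at steady state cells grow at that rate. After a change in oxygen supply the culture adjusts over several exchanges of its volume.

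The cultures were the wild-type strain CBS7435, grown under glucose limitation at 25 °C, pH 5.5 and a dilution rate of 0.075 per h, with 4 biological replicates per group. The labels give 1 group as 30% oxygen, taken at 5 volume changes of the reactor, and the other 3 as 0% oxygen, taken at 0.4, 4 and 5. In the treatment protocol these points are described differently, as 66 h at 21% inlet oxygen for the 30% group, and as 5, 50 and 70 h of 8% inlet oxygen for the 0% groups. Every group at 0% oxygen was sampled later than the 30% group, so low oxygen and time in the chemostat cannot be told apart. The strain is wild type, although the title of the series concerns protein-producing strains. Libraries held 23085262 to 40699763 estimated counts, and the lowest count of a member in a library was 192. Replicate 4 at 5 volume changes of 0% oxygen stood apart, with 0.854% of its counts in nuclear r features against 0.0140% to 0.0381% in the other 15 libraries. The t and r endings of the identifiers are not explained in the files, and no gene name could be matched to them. Members are given by chromosome and number, and the function of each is not described.

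The late difference of the members ranged from 0.80 to 2.59, with a median of 0.96, and their early difference had a median of 0.12. Over all 5041 eligible features the medians were -0.03 for the late and -0.11 for the early difference. These values chose the set, so they carry no test. Eligible features with a late difference of at least 0.8 numbered 214. Most of them, 159, also had an early difference of at least 0.4, while 3 had one of -0.4 or less and the remaining 52 form the set. The opposite pattern, an early difference within 0.4 and a late difference of -0.8 or less, was found in 33 eligible features. Many members lay near the threshold: 21 had a late difference under 0.9 and 29 had one under 1, while 23 reached 1 and 3 reached 2.

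**Figure D1:**
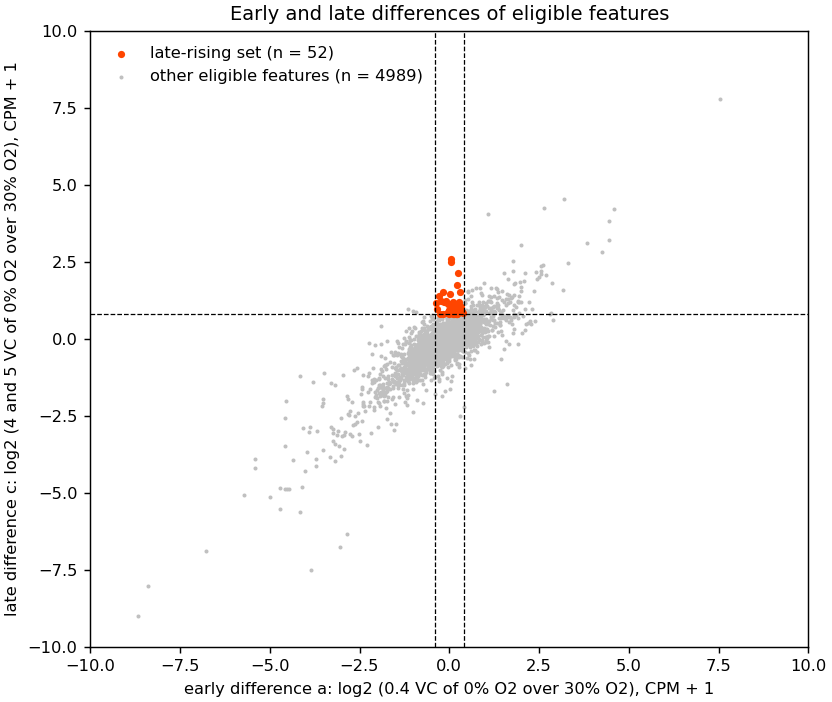
Early difference (x axis, log2) against late difference (y axis, log2) for the 5041 eligible features, with the 52 members in red, the others in grey and the thresholds as dashed lines. Most features with a high late difference also lie to the right of the band, and the members fill the part of the band above 0.8.

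Together the members took 1.06% ± 0.042 of the nuclear t counts at 30% oxygen, and 1.15% ± 0.0174, 2.29% ± 0.0757 and 2.07% ± 0.0757 at 0.4, 4 and 5 volume changes of 0% oxygen (SD, n = 4 each). The ranges of the 4 libraries were 1.00% to 1.09% at 30% oxygen and 1.13% to 1.17% at 0.4 volume changes, and at 4 and 5 volume changes they were 2.21% to 2.39% and 1.97% to 2.14%. The 8 late libraries lay above the 8 others without overlap, and each library at 4 volume changes lay above those at 5. The rule chose the members by these levels, so the gap between the late and the other libraries follows from that choice. The 5 most counted members held 44.6% to 53.2% of the members' counts in a library. Measured against its own mean at 30% oxygen, the number of members at least 0.8 higher (log2) was 0 in each library at 30% oxygen and at 0.4 volume changes. At 4 volume changes it was 43, 34, 46 and 48 members in replicates 1 to 4, and at 5 volume changes 40, 37, 40 and 31 members. The contrast between the late and the other libraries in these counts also follows from the choice of members.

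**Figure D2:**
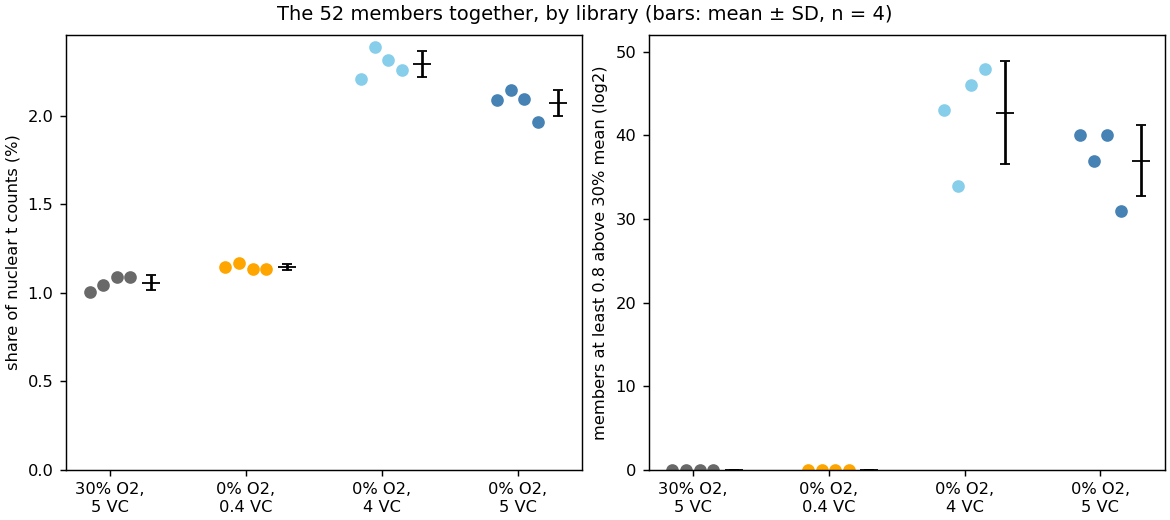
Left, share of nuclear t counts (%) taken by the 52 members. Right, number of members at least 0.8 above their mean at 30% oxygen (log2). Points are the 4 libraries of each group and bars the mean ± SD, and the libraries at 4 and 5 volume changes lie above those of the first 2 groups in both panels. That gap follows from the choice of members.

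In 47 of the 52 members all 8 late libraries exceeded all 8 libraries of 30% oxygen and 0.4 volume changes, a pattern that 3.95% of eligible features showed. The rule used these contrasts, so nothing is read from that count. In 17 members the lowest late library was at least 1.5 times the highest of the other libraries. Nothing is read from this count either, as it uses the same contrasts and no share of eligible features is given. The 5 members in which a late library fell at or below one of the others were Chr4-0279, Chr1-1545, Chr2-1059, Chr2-0197 and Chr3-2238.

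**Figure D3:**
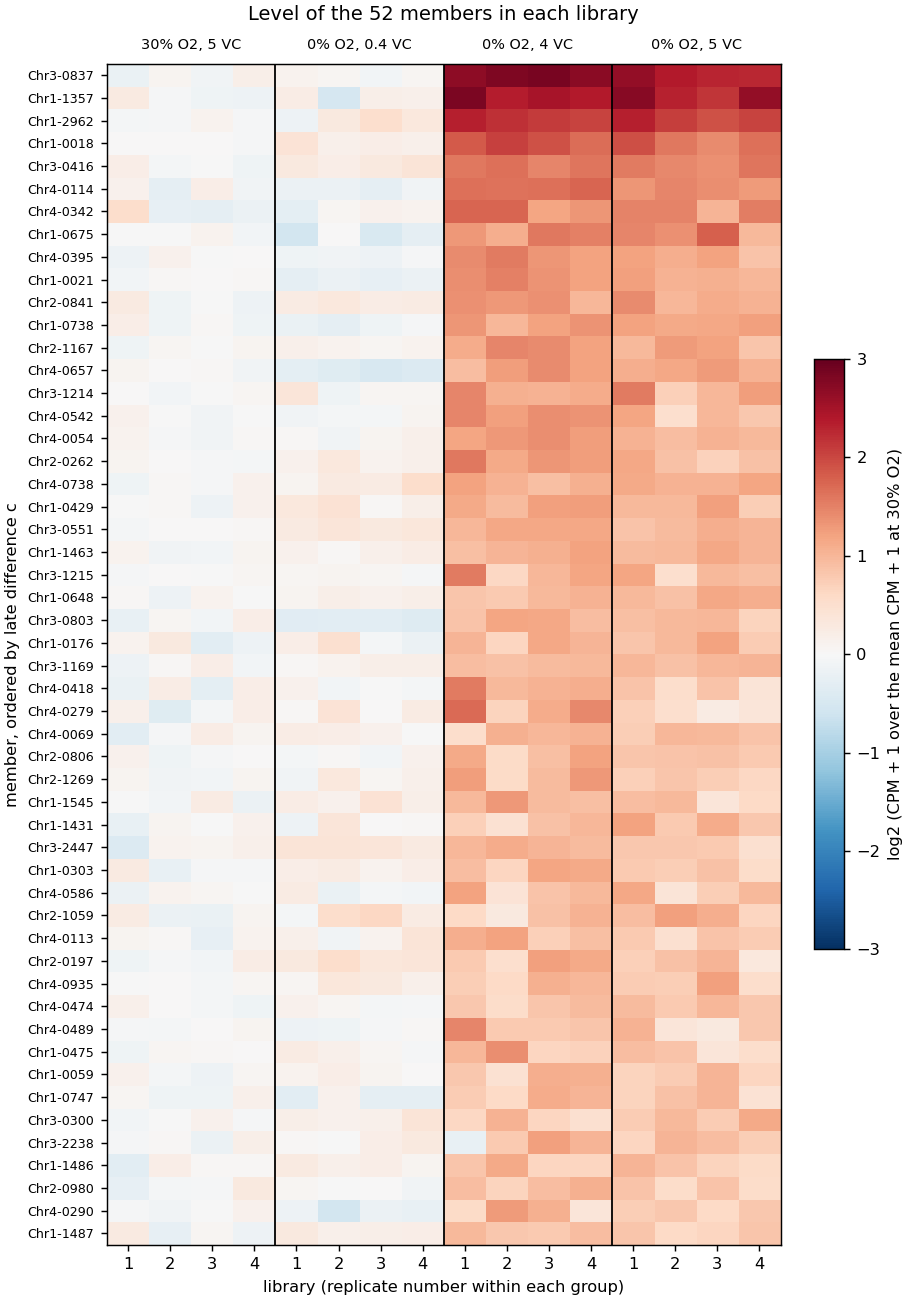
Level of each of the 52 members (rows, ordered by late difference) in each of the 16 libraries (columns), as log2 of CPM + 1 over the mean CPM + 1 at 30% oxygen. The first 2 groups stay near 0 in most cells, and the libraries at 4 and 5 volume changes are red for all but 1 cell, replicate 1 at 4 volume changes for Chr3-2238.

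The largest late difference belonged to Chr3-0837, a feature of 1230 nt coding length. It measured 47.0, 57.3, 50.0 and 60.9 CPM at 30% oxygen and 58.2, 55.9, 50.5 and 56.0 CPM at 0.4 volume changes. At 4 volume changes it measured 350, 381, 394 and 357 CPM, and at 5 volume changes 341, 286, 265 and 263 CPM. Every late library lay at least 4.33 times above the highest of the 8 others, and the late mean was 6.13 times the mean at 30% oxygen. Its level is uncertain, because its counts were fractional in all 16 libraries, as happens when the authors' quantification divides reads between similar features. The feature in the next row, Chr3-0838, also of 1230 nt, was fractional in the same 16 libraries, and the 2 counts added to a whole number within 0.05 in each. Chr3-0838 measured 130 ± 17.2 CPM at 30% oxygen, and 94.2 ± 7.88, 137 ± 15.0 and 126 ± 13.3 CPM at 0.4, 4 and 5 volume changes (SD, n = 4 each), and its late difference was 0.02. The sum of both, which does not depend on how reads were divided between them, was 184 ± 23.2 CPM at 30% oxygen, and 149 ± 10.5, 507 ± 30.8 and 415 ± 47.2 CPM at the later points. The summed pair had an early difference of -0.30 and a late difference of 1.32, within the thresholds of the set.

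Chr1-1357, of 714 nt, came second with a late difference of 2.50. It measured 21.8, 17.5, 16.2 and 16.1 CPM at 30% oxygen and 21.0, 12.3, 20.3 and 20.1 CPM at 0.4 volume changes. Its late libraries held 133, 95.9, 103 and 98.1 CPM at 4 volume changes and 124, 93.2, 82.9 and 117 CPM at 5 volume changes. The lowest late library was 3.80 times the highest of the others, and replicate 1 was the highest library at both late points. Chr1-2962, of 1404 nt, had a late difference of 2.13. It measured 22.5, 22.7, 25.2 and 22.9 CPM at 30% oxygen, and 20.8, 28.7, 33.6 and 29.1 CPM at 0.4 volume changes. At 4 volume changes it held 122, 110, 102 and 97.7 CPM, and at 5 volume changes 121, 101, 90.8 and 98.5 CPM. The late libraries did not overlap with the others, and within the late groups the ranges of 4 and 5 volume changes overlapped.

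Chr1-0018, of 1488 nt, had a late difference of 1.77 and was one of the members whose libraries at 0.4 volume changes and 30% oxygen did not overlap. It measured 105, 104, 105 and 101 CPM at 30% oxygen, and 137, 115, 119 and 115 CPM at 0.4 volume changes. At 4 volume changes it held 376, 434, 393 and 332 CPM, and at 5 volume changes 397, 312, 279 and 332 CPM. The next members by late difference were Chr3-0416 with 1.54, Chr4-0114 with 1.53, Chr4-0342 with 1.46 and Chr1-0675 with 1.41.

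**Figure D4:**
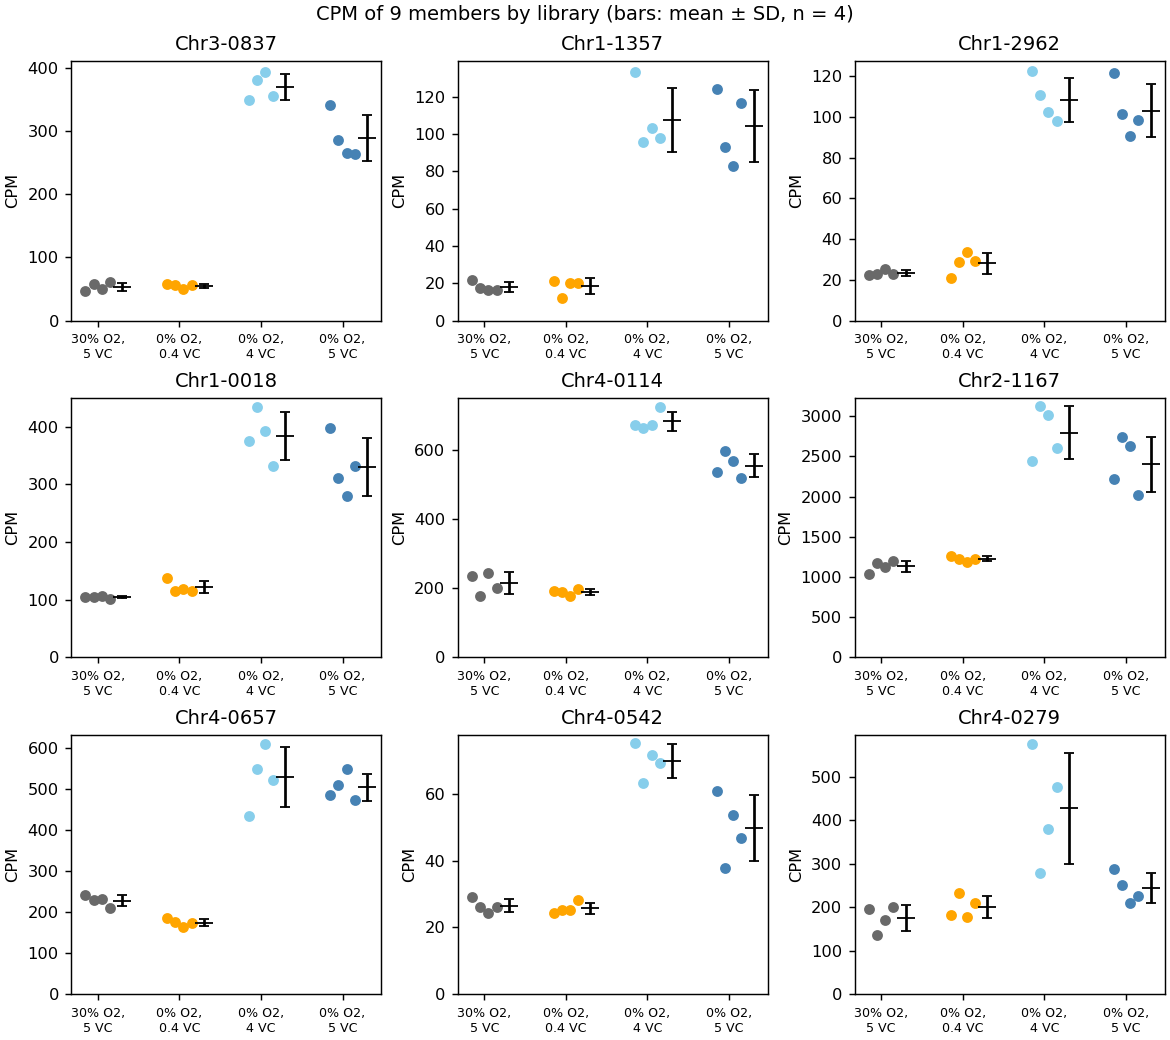
CPM of 9 members in each library (y axes from 0), with points for the 4 libraries of each group and bars for the mean ± SD. Chr3-0837, Chr1-1357 and Chr1-2962 show the widest gap between the late and the other libraries, and in Chr4-0279 the libraries at 5 volume changes lie near those of the first 2 groups.

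Being within the early threshold did not mean that the early libraries overlapped. In 41 members the libraries at 0.4 volume changes and at 30% oxygen overlapped, and in 11 they did not. Among eligible features, 50.1% were without overlap. The rule held the early difference of members within 0.4, so their smaller share without overlap follows from the choice of members. Of those 11 members, 7 were higher at 0.4 volume changes and 4 were lower. This count depends on the scaling. With TMM factors, which moved the median early difference of eligible features to 0.01, 20 members were higher without overlap and 1 was lower. The number of members with an early difference above 0 was 38 on the CPM scale and 44 with TMM factors, and the range of the early difference was -0.38 to 0.38 on the CPM scale and -0.26 to 0.50 with TMM factors. No share of eligible features by direction is given here, on either scale. The counts by direction are therefore not read as particular to the members.

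The lowest early difference, -0.38, belonged to Chr4-0657, a feature of 1728 nt. It measured 241, 228, 231 and 210 CPM at 30% oxygen, and 186, 176, 164 and 172 CPM at 0.4 volume changes. At 4 volume changes it held 436, 549, 611 and 524 CPM, and at 5 volume changes 485, 510, 549 and 474 CPM. The 4 libraries at 0.4 volume changes lay below all 4 at 30% oxygen, and the 8 late libraries lay above all of them. Chr3-0803 and Chr1-0675 followed with early differences of -0.33 and -0.30, and late differences of 0.97 and 1.41. Just outside on this side were Chr3-0762, Chr3-1049 and Chr1-0679, with early differences of -0.92, -1.00 and -1.16. At the upper early threshold, Chr2-0197, Chr2-1059 and Chr3-2447 lay inside with 0.38, 0.36 and 0.35, and Chr1-0407, Chr2-0419 and Chr4-0664 lay outside with 0.41 each. At the late threshold, Chr1-1487, Chr4-0290 and Chr2-0980 lay inside with 0.80, 0.81 and 0.81. Chr2-0136, Chr1-0269 and Chr1-1082 lay outside with 0.79 each.

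Because the same libraries chose the members, the rule was also applied to 3 of the 4 replicate numbers at a time and the members so found were measured in the replicate left out. With replicates 1, 2, 3 and 4 left out in turn, the rule found 50, 54, 47 and 57 members, of which 43, 45, 41 and 46 belonged to the set of 52. In left-out replicate 1, 38 of 50 members had a late difference of at least 0.8, against 5.15% of eligible features. In left-out replicate 2 it was 35 of 54 members, against 4.58%, and in left-out replicate 3 it was 33 of 47, against 7.81%. In left-out replicate 4, which includes the library rich in r features, it was 35 of 57, against 4.68%. The late difference in the left-out replicate was above 0 for each of the members so found. No share of eligible features above 0 is given. Medians of the members were 1.03, 0.92, 1.09 and 0.91 for replicates 1 to 4, against -0.07, -0.12, 0.07 and 0.03 over eligible features. The lowest value of a member in a left-out replicate was 0.17. An early difference within 0.4 in the left-out replicate was found in 42 of 50, 42 of 54, 40 of 47 and 49 of 57 members, against 51.5%, 57.4%, 61.5% and 60.5% of eligible features. These values describe how alike the replicates were for 4 overlapping choices of members, and they carry no test. The eligible features were not chosen by the thresholds in the other replicates, so the 2 sides are not matched.

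The rule sets its late threshold on the mean of 4 and 5 volume changes of 0% oxygen, with no threshold on the contrast between them. It did use the values of both points, so a member could pass through high values at either point alone. More members met the late threshold at 4 volume changes taken alone, 47, than at 5, 36. The counts of members below are therefore given as description only, and nothing is read from their shares beside those of other features. The contrast was tested with edgeR's quasi-likelihood test with Benjamini-Hochberg adjustment over 5452 features, fitted to all 16 libraries. Most members were lower at 5 than at 4 volume changes: 43 of 52 had a negative log2 fold change, against 49.9% of eligible features. The median over the members was -0.16, ranging from -0.81 to 0.27, against a median of -0.00 over all tested features. At an adjusted p under 0.05, 2 of 52 members were called, against 0.642% of tested features, and both were lower at 5 volume changes, against 0.183% called lower. At an unadjusted p under 0.05 there were 13 of 52, against 12.3%, and all 13 were lower at 5 volume changes, against 5.83%. One library weighed on the median: without replicate 2 at 4 volume changes, 36 members were lower at 5 volume changes and the median was -0.08. The spread between replicates also differed between the late points, with a median coefficient of variation over eligible features of 11.97% at 5 and 15.5% at 4 volume changes. The part of that spread in the choice of members, and so in the direction of this contrast, was not tested.

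Chr4-0279, of 750 nt, was one of the 2 called members. It measured 288, 251, 209 and 227 CPM at 5 volume changes, against 575, 278, 379 and 477 CPM at 4 volume changes. At 30% oxygen it had held 197, 136, 170 and 201 CPM, and at 0.4 volume changes 181, 233, 178 and 209 CPM. The 209 and 227 CPM at 5 volume changes lay within the range of the first 2 groups, and replicate 1 at 5 volume changes was above replicate 2 at 4. The log2 fold change at 5 over 4 volume changes was -0.81 ± 0.15 (SE), with an adjusted p of 0.0178 in edgeR's quasi-likelihood test. Its late difference was 1.28 at 4 volume changes alone and 0.47 at 5 volume changes alone. It thus met the late threshold through its level at 4 volume changes, and its call is not independent of that choice.

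Chr4-0542, of 2055 nt, was the other called member, and its libraries at the 2 late points did not overlap. It measured 60.9, 37.7, 53.6 and 46.9 CPM at 5 volume changes, against 75.3, 63.2, 71.6 and 69.2 CPM at 4 volume changes. Its log2 fold change was -0.51 ± 0.10 (SE), with an adjusted p of 0.0252 in edgeR's quasi-likelihood test. At 30% oxygen it averaged 26.4 ± 1.99 CPM and at 0.4 volume changes 25.7 ± 1.60 CPM (SD, n = 4 each), so each library at 5 volume changes still exceeded those levels. The direction and size of both differences held with any 1 late library left out, at -0.91 to -0.65 for Chr4-0279 and -0.61 to -0.42 for Chr4-0542 over 8 such fits, but the calls did not. Neither member was called without replicate 1 at 4 volume changes, without replicate 3 at 5 volume changes, or without replicate 4 at 5 volume changes, the library rich in r features. Without replicate 2 or replicate 3 at 4 volume changes, or without replicate 2 at 5 volume changes, Chr4-0279 alone was called, and without replicate 4 at 4 volume changes Chr4-0542 alone was called. With replicate 1 at 5 volume changes left out, both were called and so was Chr2-0262. Where leaving out a library ended the call, edgeR's adjusted p was 0.0518 to 0.0723 for Chr4-0279 and 0.0512 to 0.103 for Chr4-0542. Both were called with RLE factors, limma-voom, DESeq2 and the 2 other filters on low counts, and neither was called in a fit of the 8 late libraries alone (log2 fold changes of -0.81 and -0.51) or with limma on log2(TPM + 1) (-0.85 and -0.55).

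In 6 members all 4 libraries at 5 volume changes lay below all 4 at 4 volume changes, against 1.27% of eligible features. They were Chr3-0837, Chr4-0114, Chr4-0542, Chr4-0054, Chr4-0418 and Chr3-2447, some of them singled out here after their values were seen. Chr4-0418 and Chr3-2447 met the late threshold through their level at 4 volume changes. Their late differences were 1.19 and 1.02 there, and 0.67 and 0.73 at 5 volume changes alone. The count of 6 is thus not independent of the choice of members. Chr4-0114, of 1938 nt, measured 535, 596, 569 and 519 CPM at 5 volume changes, against 673, 663, 673 and 723 CPM at 4 volume changes. Its log2 fold change was -0.32 ± 0.10 (SE), and the adjusted p of 0.170 in edgeR's quasi-likelihood test missed the threshold. For Chr3-0837 the log2 fold change was -0.39 ± 0.12 (SE), with an adjusted p of 0.153 in the same edgeR test. The 9 members with a positive value included Chr2-1059, at 0.27 ± 0.16 (SE), and 0 of the 9 passed an unadjusted p under 0.05. Taken alone, 4 volume changes gave a late difference of at least 0.8 in 47 members and 5 volume changes in 36, and 31 members had it at both. The median late difference was 0.92 at 5 and 1.04 at 4 volume changes.

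**Figure D5:**
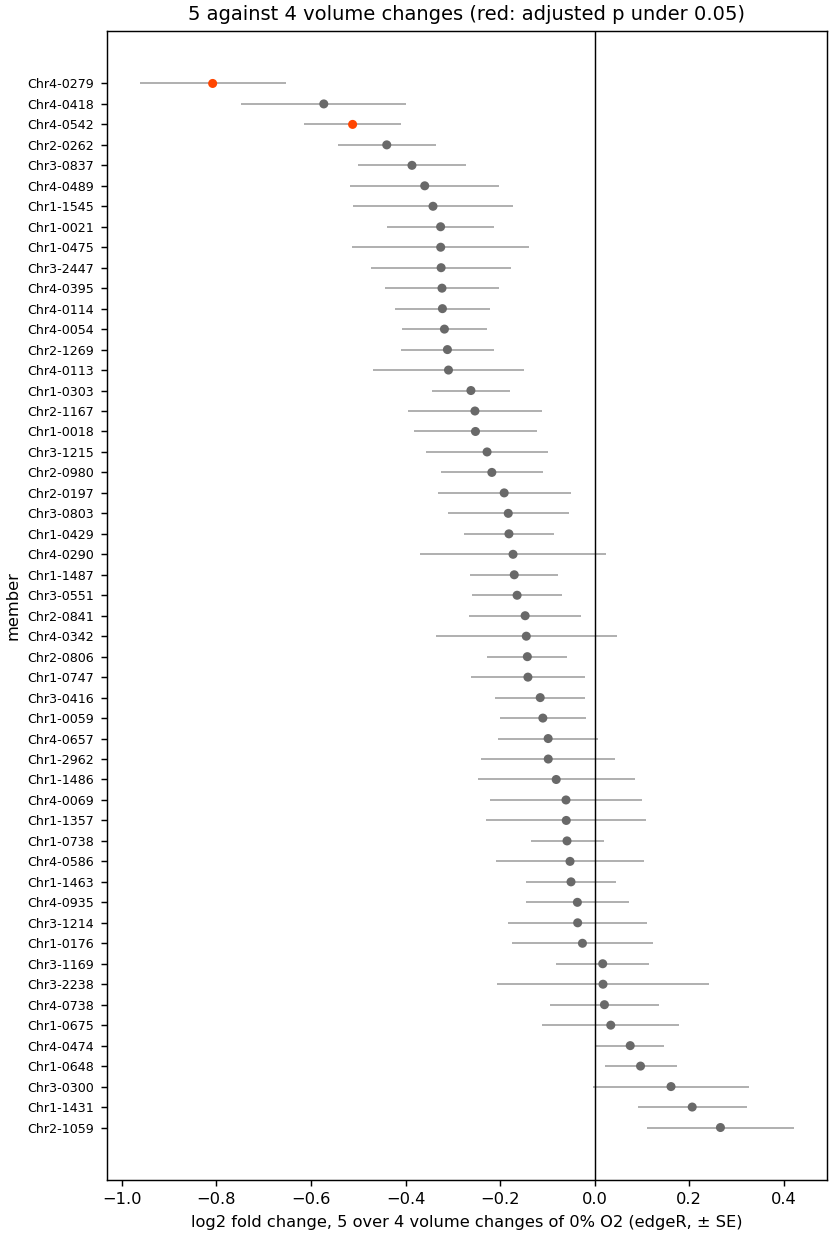
Log2 fold change at 5 over 4 volume changes of 0% oxygen (x axis, edgeR, ± SE) for each of the 52 members (rows), with the 2 at an adjusted p under 0.05 in red. Points lie left of 0 for 43 members, and Chr4-0279 is farthest to the left at -0.81.

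Levels differed widely among the members. Deposited TPM values, which are scaled by effective length, allow features to be compared. The median level of the members at 30% oxygen was 51.4 TPM, against 51.5 TPM over eligible features. At the late points it was 117 TPM in the members and 48.2 TPM over eligible features. The rule asked for a raised late level, so this difference follows from the choice of members. Their median coding length was 1278 nt, against 1194 nt, with a range of 189 to 3270 nt. The late TPM level was 13.5 in Chr4-0586 and 15.4 in Chr4-0418, the lowest members, and 846 in Chr2-1167, 964 in Chr3-0300 and 1572 in Chr3-2447. Above those lay 2 short features, Chr4-0342 with 4201 TPM and Chr4-0069 with 34711 TPM. Their TPM level is sensitive to the effective length, which was 129 to 164 nt for the 354 nt of Chr4-0342 and 44.1 to 64.0 nt for the 219 nt of Chr4-0069.

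On the CPM scale Chr4-0069 was also the most counted member. It measured 1232, 1478, 1770 and 1612 CPM at 30% oxygen and 1763, 1761, 1654 and 1505 CPM at 0.4 volume changes. At 4 volume changes it held 2199, 3182, 3059 and 3137 CPM, and at 5 volume changes 2559, 3057, 2966 and 2753 CPM. Replicate 1 was the lowest library at 30% oxygen and at 4 volume changes, and those libraries had effective lengths of 64.0 and 55.0 nt, the highest of the 16 for this feature. The part of that in its counts was not tested. The shortest member, Chr3-2238 with 189 nt, measured 11.8, 24.8, 34.1 and 29.6 CPM at 4 volume changes and 22.3, 29.3, 27.4 and 23.9 CPM at 5 volume changes. At 30% oxygen it had 14.0 ± 1.56 CPM and at 0.4 volume changes 15.4 ± 1.65 CPM (SD, n = 4 each). Its replicate 1 at 4 volume changes was below all 8 libraries of the first 2 groups, and the effective length there was 40.8 nt, in a range of 31.6 to 47.0 nt over the 16 libraries.

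Among abundant members of ordinary length, Chr2-1167, of 2037 nt, averaged 1131 ± 69.9 CPM at 30% oxygen, and 1225 ± 32.0, 2796 ± 326 and 2400 ± 339 CPM at 0.4, 4 and 5 volume changes (SD, n = 4 each). Its late libraries, from 2022 to 3124 CPM, lay above the others without overlap. Its count was fractional in 2 libraries. Chr3-2447, of 1050 nt, averaged 1179 ± 199 CPM at 30% oxygen, and 1505 ± 61.1, 2398 ± 128 and 1957 ± 211 CPM at the later points. Its libraries at 0.4 volume changes, from 1416 to 1548 CPM, already lay above those at 30% oxygen, from 882 to 1302 CPM. Chr3-0300, of 1272 nt, averaged 968 ± 62.7 CPM at 30% oxygen, and 1127 ± 96.1, 1591 ± 282 and 1831 ± 229 CPM at the later points. The longest member, Chr1-0747 with 3270 nt, averaged 407 ± 40.1 CPM at 30% oxygen, and 361 ± 54.6, 754 ± 118 and 690 ± 121 CPM at the later points.

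The spread between replicates of the members was near that of other features and was wider at the late points. The median coefficient of variation over members was 8.80% at 30% oxygen, and 7.24%, 14.1% and 12.5% at 0.4, 4 and 5 volume changes. Over eligible features it was 9.90% at 30% oxygen, and 8.11%, 15.5% and 11.97% at those points. The widest ranges over the 8 late libraries were those of Chr3-2238 and Chr4-0279, whose highest late library was 2.89 and 2.75 times the lowest.

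The members lay on all 4 nuclear chromosomes. There were 18 on chromosome 1, 8 on chromosome 2, 10 on chromosome 3 and 16 on chromosome 4, which is 1.16%, 0.624%, 0.822% and 1.62% of the eligible features there. Row order in the tables was taken as gene order, without coordinates. In rows 21 to 40 from a chromosome end, just inside the excluded rows, there were 5 members, 9.62% of the set, against 3.07% of eligible features. They were Chr1-0018 in row 22, Chr3-1215 in row 23, Chr3-1214 in row 24, Chr1-0021 in row 25 and Chr2-1269 in row 30 from the nearest end, and Chr1-0021 and Chr2-1269 are named here after their values were seen. Of the 160 features in the excluded end rows, 136 reached 10 CPM and 4 met both thresholds, against 52 of 5041 eligible features.

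Members formed 3 pairs of adjacent rows, Chr1-1486 with Chr1-1487, Chr3-1214 with Chr3-1215, and Chr4-0113 with Chr4-0114. The 33 features with the opposite pattern also formed 3 such pairs. Chr3-1214 measured 288, 220, 214 and 227 CPM at 4 volume changes and 310, 172, 208 and 250 CPM at 5 volume changes, against a mean of 104 ± 4.57 CPM at 30% oxygen (SD, n = 4). Chr3-1215 measured 401, 207, 270 and 307 CPM at 4 volume changes and 306, 191, 268 and 253 CPM at 5 volume changes, against 135 ± 3.79 CPM at 30% oxygen. In both, replicate 1 was the highest and replicate 2 among the 2 lowest libraries at each late point. Chr4-0113 and Chr4-0114 differed in level and in size of change, with late means of 32.7 and 213 TPM and late differences of 0.86 and 1.53. Chr1-1486 and Chr1-1487 were close to the late threshold, with late differences of 0.81 and 0.80. The 94 eligible neighbours that are not members had a median late difference of 0.08, and 6 of them reached 0.8, against 214 of 5041 eligible features.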

How the data were processed

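RNA-seq was available for 16 libraries, 4 per group. Per the labels' protocols, ribosomal RNA was depleted and directional libraries were prepared. The submitters' processing notes name kallisto 0.44.0 and DESeq2 1.36.0, next to trimming and alignment tools (cutadapt 1.18, Bowtie2 2.3.4.1, SAMtools 1.9) and R 4.2.0, with no roles. Build, annotation and strand setting: not given in the sources used here. Per the file headers, the authors deposited for every feature its estimated count without normalisation, a TPM value, and the nominal and effective length. A length divisible by 3 was found for 99.96% of t features, hence the term coding length.

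CPM and the differences were computed as the report states. Estimated counts were rounded, filtered with filterByExpr (112 features removed, 5452 tested) and fitted in edgeR 4.0.16 (R 4.3.3) with TMM factors and 1 mean per group over all 16 libraries, 12 residual degrees of freedom. 5 against 4 volume changes was tested with glmQLFTest and Benjamini-Hochberg adjustment, and standard errors were derived from the F statistic. The script was tested on simulated data. Alternatives used RLE factors, DESeq2 1.42.0, limma-voom and limma 3.58.1 on log2 TPM, other filters and left-out libraries. Counts exceeded 1e-06 from a whole number where called fractional.

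The members and lists were chosen with earlier results of these data known. Members described library by library are those with the highest late CPM (4), the largest late difference (4), the largest ratio of highest to lowest late library (2), the longest and shortest, those called between the late points, those in adjacent rows, and the 3 nearest inside each threshold. That rule named 25 members; others were named after their values were seen, as lowest, highest or in short lists. The reference table, of assembly ASM2700v1 with 5040 genes, matched 0 identifiers, so sequences and coordinates are not used here.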

Additional observations from a re-analysis of the deposited data

Results flagged for a closer look

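A library far from the other 3 of its group was looked for in 104 sets of 4 libraries, which are the 4 groups of each of 25 members and of the members' summed share. Such a library was found in 8 sets. A rate of 1 in 20 would give 5.2 if the sets were independent. They share the same libraries, and some members were named for a wide late range, so nothing is read from the comparison. Low libraries were those of Chr4-0069 at 4 volume changes of 0% oxygen (2199 CPM, the others 3059 to 3182), Chr1-1357 at 0.4 volume changes (12.3 CPM, the others 20.1 to 21.0) and Chr4-0113 at 30% oxygen (10.7 CPM, the others 13.4 to 13.9). Chr3-2447 had a low library in 2 groups, with 1643 CPM at 5 volume changes (the others 2025 to 2082) and 882 CPM at 30% oxygen (the others 1258 to 1302). High libraries were those of Chr3-1214 at 4 volume changes (288 CPM, the others 214 to 227), Chr1-0747 at 0.4 volume changes (443 CPM, the others 327 to 340) and Chr1-2962 at 30% oxygen (25.2 CPM, the others 22.5 to 22.9).

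A difference between the late points was found for Chr4-0279 and Chr4-0542, at log2 fold changes of -0.81 and -0.51 for 5 over 4 volume changes in edgeR's quasi-likelihood test. The rule that chose both members had used their values at these points.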

How the results depend on the processing

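The set was rebuilt under 15 alternatives and held 42 to 61 features, except with a late difference of at least 1, which left 23. Of the 52 members, 46 were also chosen with TMM factors, 46 with DESeq2 size factors and 46 from TPM values. The number of members whose late libraries exceed all others was 45 to 48. Leaving out each replicate number in turn gave sets of 47 to 57 and counts of 47 to 48. Of 5 against 4 volume changes, DESeq2 called 113 features and 4 members (Chr2-0262 and Chr4-0054 besides the 2 of edgeR), limma on log2(TPM + 1) called 8 and 0, limma on log2(TPM + 0.1) 10 and 0, and edgeR on the 8 late libraries alone 0 and 0. In that last fit 438 features and 12 members had an unadjusted p under 0.05. Whether replicate numbers pair the late samples is unclear. Of the same-numbered pairs of deviations, 3 of 4 correlated above 0.1 (0.407, 0.18 and 0.425) and 1 did not (-0.201). Replicates 3 and 4 at 5 volume changes correlated best with replicates 4 and 2 at 4 volume changes (0.488 and 0.305). The same pairs were the best match from the side of 4 volume changes. The labels carry the numbers through all sampling points without saying whether a number marks 1 vessel sampled repeatedly, so no block was used. With a replicate block the fit of all 16 libraries called 29 features and 2 members, and the fit of the 8 late libraries called 1 and 0. Leaving out 1 late library gave 16 to 41 features and 0 to 3 members. In these fits an arm of 3 libraries remained. The cause of these shifts was not tested. Over 18 alternatives, 36 to 46 members were lower at 5 volume changes, with a median of -0.20 to -0.08. Of 450 alternative values of the 25 named members, 416 kept their direction and their side of the threshold and 18 kept the direction and lost the call. The other 16, of 8 members with a log2 fold change of at most 0.173 in size, changed sign, and 0 of them were called in either fit. Chr1-0675 (0.03) gave -0.038 and -0.041 with the TPM fits and -0.087 to 0.15 with 1 library left out. In the same fits Chr4-0069 gave -0.19 to 0.075, Chr1-1357 -0.14 to 0.050, Chr1-1486 -0.17 to 0.14, Chr3-1214 -0.18 to 0.071, Chr4-0290 -0.34 to 0.10, Chr4-0657 -0.20 to 0.0013 and Chr3-2238 -0.23 to 0.17. The calls of Chr4-0279 and Chr4-0542 were kept in 10 and 8 of 18 alternatives; where lost, the log2 fold changes were -0.85 to -0.65 and -0.58 to -0.42. At least 192 counts stood behind each member in each library, and the late contrast rests on 4 libraries per point.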
